A study of Mus musculus with 12 samples.

Results

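The genes of the Wnt and Notch signalling pathways were followed through a map of Rev-Erbα binding in mouse brown adipose tissue. Members were all peaks whose annotated gene name begins as a Wnt ligand, Frizzled receptor (Fzd), Sfrp, Dkk, Axin, Tcf7 or R-spondin (Rspo) gene, or is Lef1, Lrp5, Lrp6, Wif1, Lgr4, Lgr5 or Lgr6. On the Notch side they were the peaks of Notch, Jag, Dll, Hes and Hey genes. This gave 89 of the 13410 peaks in the 2 deposited lists, 72 of 11227 in the 4 °C list and 17 of 2183 in the 29 °C list. Because 13 sites stood in both lists, the members made up 76 distinct sites, 60 at Wnt and 16 at Notch genes.

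The study mapped HA-tagged Rev-Erbα by chromatin immunoprecipitation and sequencing with anti-HA magnetic beads in C57BL/6 mice. HA-RevErba mice were kept for 1 week at 4 °C, a chronic cold challenge, or at 29 °C, which is thermoneutral for mice, with 4 libraries per temperature. WT mice without the tag went through the same pull-down at both temperatures with 2 libraries each, so the WT value is the background of the beads and not an input. The labels do not say how the tagged allele was made, nor the age or sex of the mice. The 12 libraries held 27.0 to 37.3 M (mega) aligned reads each. Binding values exist only for 4 pools, 1 per genotype and temperature, so no difference between temperatures has a replicate check and none was tested. The unit is FPKM, the reads per kilobase of a 200 bp peak window per M reads of the pool. In bulk tissue, binding in more cells and stronger binding per cell cannot be told apart.

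Rev-Erbα is a nuclear receptor of the circadian clock that represses genes by recruiting corepressors to AGGTCA half-sites flanked by A and T bases. Canonical Wnt signalling runs from secreted ligands through Frizzled receptors and the coreceptors LRP5 and LRP6 to β-catenin, which is held down by the Axin scaffold and acts with TCF/LEF factors on DNA. In adipose precursors, active Wnt/β-catenin signalling is known to hold back fat cell formation. Notch receptors are cleaved after contact with Jagged or Delta-like ligands on a neighbouring cell. The freed intracellular part joins the DNA-binding protein RBPJ and switches on Hes and Hey repressor genes, and in fat this pathway is known for restraining beige and brown adipocyte character.

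The sites were not at the core promoters of these genes. RefSeq promoter sequences of build GRCm38.p6, from 250 bases before to 50 after the transcription start site (TSS), were found for 48 of the 71 protein-coding member genes, as 58 windows. None of the member peaks is centred in that span, and the closest lies at -740 bp, beside Fzd4. Both strands were searched for AGGTCA, for AGGTCA with AANT just before it, for GGGTCA with AANT just before it, and for AGGTCA repeated in the same direction after any 2 bases. The first and the last of these longer forms contain AGGTCA itself. AGGTCA was in 4 of the 58 windows (6.90%) and in 16.3% of all 32851 promoter windows. The longer forms were in 0 of the 58, against 0.219%, 0.216% and 0.00913% of all windows. Only Tcf7 and Dll1 had both an AGGTCA match and a Rev-Erbα site. The TCF/LEF motif CTTTGAT was in 2 member windows (3.45%, against 3.73% of all), those of the ligand genes Wnt5b and Wnt11, both with Rev-Erbα sites. These 4 stretches show the letters a nuclear receptor or TCF/LEF protein can read beside genes that carried sites. They are printed along the gene's strand with the match, on either strand, in capitals.
Tcf7, chr11:52282596-52282620, minus strand, match from -13: cttccggtgcccTGACCTttatagg
Dll1, chr17:15375915-15375944, minus strand, match from -109: tctgaccagggcAGGTCAcgggagagcacc
Wnt5b, chr6:119449440-119449468, minus strand, match from -71: agtaagtctctCTTTGATctgctccctgt
Wnt11, chr7:98835050-98835078, plus strand, match from -51: gacgtgggcggATCAAAGcgacggtccgc
The RBPJ motif GTGGGAA was in 7 of the 58 windows (12.1%, against 6.38% of all), and Lef1 was the only one of its 6 genes with a Rev-Erbα site. A match is a description of the letters and not a binding site. The peaks themselves are on build mm9, and their positions cannot be set beside these coordinates.

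More member genes carried a site than protein-coding genes at large, in both pathways. In the 4 °C list 22 of 53 Wnt genes (41.5%) and 9 of 18 Notch genes (50%) were the annotated gene of a peak, beside 21.8% of all 21031 protein-coding genes. In the 29 °C list the counts were 11 Wnt genes (20.8%) and 3 Notch genes (16.7%), beside 6.3%. All 4 Notch receptor genes and 10 of 15 Wnt receptor genes (66.7%) had a 4 °C site. Among 19 Wnt ligand genes the share was 26.3% and among 9 Hes and Hey genes 22.2%, both near the 21.8% of all genes. In the 29 °C list these 2 families had 15.8% and 11.1%, beside 6.3%. No site in either list was found for 14 of the ligand genes and 7 of the Hes and Hey genes. These shares take no account of how active a gene is or how far it lies from its neighbours. The 39 members without a site were Wnt1, Wnt2, Wnt2b, Wnt3, Wnt3a, Wnt6, Wnt7a, Wnt7b, Wnt8a, Wnt9a, Wnt9b, Wnt10a, Wnt10b, Wnt16, Fzd2, Fzd3, Fzd9, Fzd10, Lgr5, Sfrp1, Sfrp4, Sfrp5, Dkk1, Dkk4, Rspo1, Rspo2, Rspo3, Rspo4, Axin1, Tcf7l1, Jag2, Dll3, Hey1, Hey2, Hes2, Hes3, Hes5, Hes6 and Hes7.

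Of the 72 member sites of the 4 °C list, 13 overlapped a site of the 29 °C list by at least 1 bp, or 18.1%, beside 14.9% of all 4 °C sites. Of the 17 member sites of the 29 °C list the same 13 were 76.5%, and the share over that whole list was also 76.5%. They lay at Axin2 and Wnt5a with 2 sites each and at Fzd1, Fzd5, Lgr6, Lrp5, Wif1, Wnt11, Dll4, Notch3 and Hes1 with 1 each. Another 4 sites were listed at 29 °C only, at Wnt5a, Wnt8b, Tcf7 and Tcf7l2. The 3 marker genes of the pathways, Hes1, Wif1 and Notch3, were all in both lists.

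HA-RevErba signal was higher in the 4 °C pool than in the 29 °C pool at nearly every member site of the 4 °C list, as it was over that list as a whole. The median was 6.99 FPKM in the cold and 2.23 at 29 °C over the 56 Wnt sites, with WT at 1.12 and 1.01. Over the 16 Notch sites it was 6.75 and 2.77 FPKM, against 0.93 and 1.01. The ratio of the 4 °C to the 29 °C pool, per read of the pool, had a median of 3.20 at Wnt sites and 2.67 at Notch sites, beside 3.05 over all 11227 sites. It was at least 2 at 48 Wnt sites (85.7%) and 12 Notch sites (75.0%), beside 83.4% of all sites. The exact 95% Clopper-Pearson interval of the ratio, which covers counting error only, lay above 1 at 69 of the 72 sites, and at 95.4% of all sites. Scaled instead on the WT reads in the 29 °C windows (factor 1.71), all ratios fall by that factor, and 6 of the 72 turn below 1. They are the strongest sites at Axin2, Fzd5 and Lrp5, both Dll4 sites and the Wnt11 site at 89.6 kb. Windows of this list were chosen on 4 °C signal, which favours ratios above 1, and the shares are near those of the whole list. In the 17 member windows of the 29 °C list the median ratio was 1.66, beside 1.64 over all 2183, and 3 reached 2, or 17.6% beside 31.5%. Under that scaling 7 of the 17 turn below 1, those of Axin2 at -91.7 kb, Dll4, Fzd5, Hes1, Lgr6, Lrp5 and Tcf7. The share of all sites that turn was computed for neither list, so both counts have no background beside them.

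**Figure D1:**
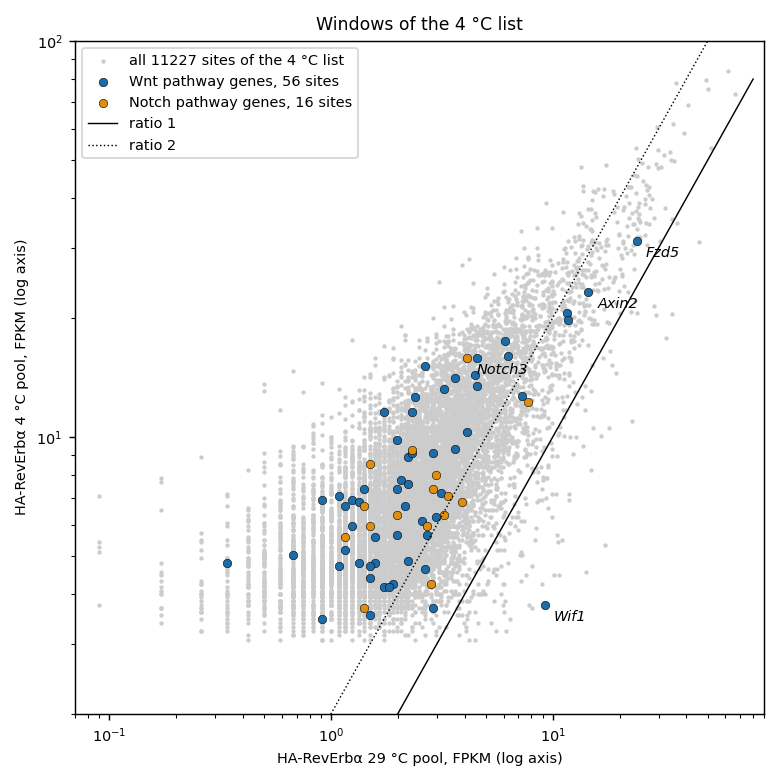
HA-RevErba FPKM in the 29 °C pool (x axis, log) against the 4 °C pool (y axis, log) in the windows of the 4 °C list. Grey points are all 11227 sites, blue points the 56 Wnt sites and orange points the 16 Notch sites, with lines at ratios of 1 and 2. The Wif1 site, at 9.22 and 3.77 FPKM, is the only member below the line of ratio 1, and the Fzd5 site, at 23.86 and 31.22, is the highest member on both axes.

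The Wif1 site went the other way. Wif1 encodes Wnt inhibitory factor 1, a secreted protein that binds Wnt ligands. Its single site lies in a Wif1 intron at 57.0 kb from the TSS (chromosome 10, 120527934 to 120528134). The HA-RevErba pools had 3.77 FPKM in the cold and 9.22 at 29 °C, with WT at 0.38 and 1.01. The ratio was 0.409 (interval 0.285 to 0.578), read from 48 and 112 reads. In the window of the 29 °C list it was 0.356 (0.246 to 0.507), with 3.46 and 9.71 FPKM. A ratio of at most 0.5 was found at 0.0802% of all 4 °C sites (9 of 11227) and at 3.99% of all 29 °C sites. The WT pools held 2 and 5 reads there, so background was low at both temperatures.

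**Figure D2:**
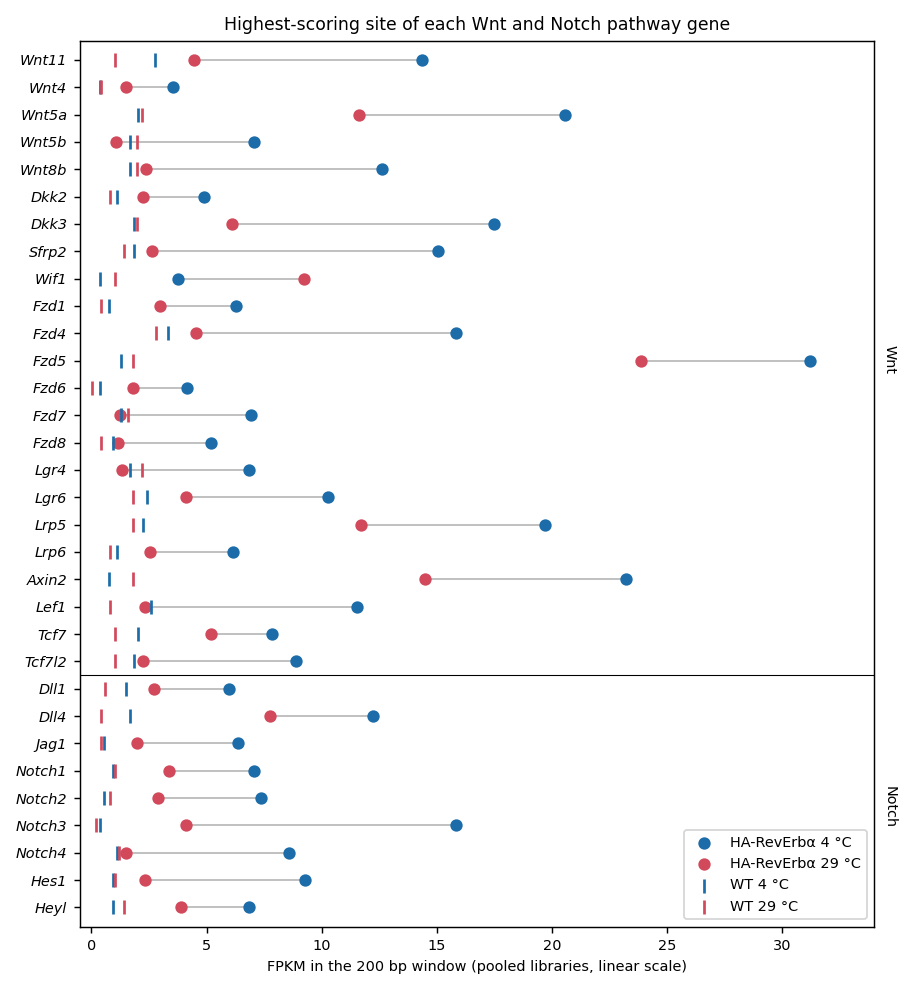
FPKM in the 4 pools (x axis, linear) at the highest-scoring site of each of the 32 member genes with a site (y axis). Filled circles are HA-RevErba pools and upright ticks WT pools, blue at 4 °C and red at 29 °C; Tcf7 is read in its 29 °C window. Wif1 is the only gene with the red circle to the right of the blue one, and at Wnt5b, Fzd7 and Lgr4 the red circle lies left of the red tick.

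Among the Wnt ligand genes, 5 had sites, and Wnt5a had the strongest. WNT5A is known mainly for signalling without β-catenin. The top Wnt5a site (chromosome 14, 29122051 to 29122251) had 20.55 FPKM in the cold and 11.61 at 29 °C, against 2.04 and 2.20 in WT (ratio 1.77, 1.44 to 2.19). A second shared site (29099771 to 29099971) had 12.71 and 7.25 FPKM, against 0.93 and 1.01 (ratio 1.76, 1.35 to 2.30). Both lie far from the gene, at -197 and -219 kb from the TSS, inside introns of Erc2, a gene of the presynaptic active zone. Between them, at -201 kb, a site listed at 4 °C only had 5.97 and 1.24 FPKM, against 0.56 and 1.80 in WT (ratio 4.83, 2.75 to 9.05). A site listed at 29 °C only, at -222 kb, had 4.62 FPKM at 29 °C and yet 9.11 at 4 °C, against 0.41 and 2.59 in WT. There the 4 °C value was 3.53 times WT, under the limit of 4 times WT seen throughout both lists. The Wnt5a neighbourhood thus held sites of all 3 list classes within introns of 1 other gene. The remaining site, at 150 kb, had 4.71 and 1.08 FPKM.

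Wnt11 encodes another ligand known mainly for β-catenin independent signalling. Its strongest site, in the 3′ UTR at 15.2 kb from the TSS (chromosome 7, 106002455 to 106002655), had 14.36 FPKM in the cold and 4.45 at 29 °C, against 2.77 and 1.01 in WT (ratio 3.23, 2.37 to 4.46). In the 29 °C window the 4 pools had 14.12, 4.62, 2.41 and 0.81 FPKM, in the same order. The other 4 Wnt11 sites were listed at 4 °C only. The one at 89.6 kb, in an intron of the autophagy gene Uvrag, had 3.70 and 2.89 FPKM, against 0.56 and 1.01, and its ratio of 1.28 had an interval that includes 1 (0.809 to 2.04). The one at -29.9 kb had the largest ratio of the 5, 4.97 (3.19 to 8.04).

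The promoter site of Wnt5b, at -838 bp (chromosome 6, 119417967 to 119418167), had 7.07 FPKM in the cold and 1.08 at 29 °C, against 1.67 and 2.0 in WT. The 29 °C value was thus at the level of the beads, and the ratio of 6.60 (3.67 to 12.9) rests on 13 reads at 29 °C. Wnt8b, a ligand gene of the canonical branch, had 2 sites that differed in direction. The one at -34.5 kb had 12.63 and 2.39 FPKM, against 1.67 and 2.0 in WT (ratio 5.29, 3.55 to 8.16). The one at -38.7 kb, listed at 29 °C only (chromosome 19, 44529138 to 44529338), had 3.70 and 6.92 FPKM, against 0.19 and 1.01 (ratio 0.534, 0.365 to 0.771). The 2 intervals do not overlap, but each window was chosen on signal at its own temperature, which favours these directions. At 4 °C the site at -38.7 kb was 3.51 FPKM over WT and 20 times WT, on 1 WT read. It thus passed the limits of 3 FPKM over WT and 4 times WT and was still not in the 4 °C list. Wnt4, a ligand of tissue patterning, had 1 weak intronic site with 3.54 and 1.49 FPKM, against 0.38 and 0.41 (ratio 2.38, 1.35 to 4.38).

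Secreted modulators of Wnt signalling other than Wif1 had sites in the 4 °C list only. Dkk3 belongs to the Dickkopf family. Its stronger site, at -26.5 kb (chromosome 7, 119328922 to 119329122), had 17.50 FPKM in the cold and 6.10 at 29 °C, against 1.85 and 2.0 in WT (ratio 2.87, 2.20 to 3.79). Its other site, at -33.3 kb, had 11.54 and 1.74 FPKM, against 1.30 and 0.61 (ratio 6.67, 4.21 to 11.1), and these intervals do not overlap. Sfrp2, a secreted Frizzled-related protein that binds Wnt ligands, had a site at 21.8 kb (chromosome 3, 83591952 to 83592152) with 15.07 and 2.64 FPKM, against 1.85 and 1.41 (ratio 5.72, 3.92 to 8.60). Dkk2, an antagonist of LRP coreceptors, was annotated to a site at 242 kb with 4.87 and 2.23 FPKM, against 1.12 and 0.81 (ratio 2.19, 1.37 to 3.58). None of the 4 R-spondin genes, whose products amplify Wnt signals through LGR receptors, had a site.

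Receptor genes held 24 of the 56 Wnt sites in the 4 °C list and 4 of the 14 in the 29 °C list. Frizzled proteins are the Wnt receptors. The strongest site of all members was annotated to Fzd5 at -57.7 kb and lies in an intron of Plekhm3 (chromosome 1, 64841938 to 64842138). It had 31.22 FPKM in the cold and 23.86 at 29 °C, against 1.30 and 1.80 in WT, from 398 and 290 HA-RevErba reads. Its ratio of 1.31 (1.12 to 1.53) was the lowest of the 24 Wnt receptor sites in the 4 °C list, and at 29 °C it was 13.3 times WT. Just 3.44 kb away, in the Plekhm3 3′ UTR, a Fzd5 site listed at 4 °C only had 13.42 and 4.53 FPKM, against 2.41 and 0.41 (ratio 2.96, 2.18 to 4.09). The Fzd5 site nearest the gene, at -18.4 kb, had 5.03 and 0.67 FPKM, against 1.12 and 0.41 (ratio 7.63, 3.65 to 18.4), on 8 reads at 29 °C. Strength and ratio thus ran opposite ways over the 3 Fzd5 sites.

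Fzd4 carried the site closest to a TSS. At -740 bp (chromosome 7, 96552036 to 96552236) it had 15.85 FPKM in the cold and 4.53 at 29 °C, against 3.33 and 2.80 in WT (ratio 3.50, 2.59 to 4.81). Its WT values were among the highest of the members, so the signal at 29 °C was 1.62 times WT. The site in the Fzd4 3′ UTR had 9.11 and 2.31 FPKM (ratio 3.95, 2.60 to 6.20). Fzd1 was annotated to 3 sites from -74.6 to -95.5 kb, all in introns of the kinase gene Cdk14. The shared one had 6.28 and 2.97 FPKM, against 0.75 and 0.41 (ratio 2.12, 1.41 to 3.23), and in the 29 °C window the WT 29 °C pool held 0 reads.

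Fzd7 had 2 sites 1.02 kb apart, at 5.53 and 6.55 kb from the TSS. The higher had 6.91 FPKM in the cold and 1.24 at 29 °C, against 1.30 and 1.60 in WT (ratio 5.59, 3.21 to 10.4). Fzd6 had 1 site at -17.5 kb with 4.17 and 1.82 FPKM, against 0.38 and no WT read at 29 °C (ratio 2.30, 1.37 to 3.97). Fzd8 was annotated to 2 sites at -389 and -519 kb, the most distant of the members. The higher had 5.19 and 1.16 FPKM, against 0.93 and 0.41 (ratio 4.50, 2.50 to 8.67).

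Lrp5, a Wnt coreceptor, had 5 sites. The strongest, at -9.11 kb (chromosome 19, 3695571 to 3695771), had 19.69 FPKM in the cold and 11.69 at 29 °C, against 2.22 and 1.80 in WT (ratio 1.69, 1.37 to 2.09), and stood in both lists. The 4 intronic Lrp5 sites were listed at 4 °C only with 7.22 to 13.18 FPKM. The strongest of them, at 19.7 kb, had 3.22 FPKM at 29 °C against 2.80 in WT, and its ratio of 4.11 (2.88 to 5.98) does not overlap that of the shared site. The other coreceptor gene, Lrp6, had 1 site at -8.60 kb with 6.13 and 2.56 FPKM, against 1.12 and 0.81 (ratio 2.40, 1.56 to 3.76).

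The R-spondin receptor genes Lgr4 and Lgr6 had sites, Lgr5 none. A shared Lgr6 intron site at 1.90 kb had 10.28 FPKM in the cold and 4.12 at 29 °C, against 2.41 and 1.80 in WT (ratio 2.50, 1.79 to 3.53). Read in the 29 °C window, which overlaps by 141 bp, the pools had 8.32 and 4.94 FPKM, against 2.22 and 1.21 (ratio 1.68, 1.22 to 2.35). In Lgr4 the site at 4.19 kb had 6.83 and 1.33 FPKM, against 1.67 and 2.20, so it did not exceed WT at 29 °C. The Lgr4 site at 37.6 kb had a ratio of 1.76 (1.12 to 2.79), and its interval does not overlap that of the first, 5.18 (3.02 to 9.47).

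Axin2, a scaffold of the β-catenin destruction complex and itself a Wnt target, had 6 sites, the most of any member. The strongest lies at -91.7 kb in an intron of Cep112 (chromosome 11, 108689882 to 108690082). It had 23.22 FPKM in the cold and 14.48 at 29 °C, against 0.75 and 1.80 in WT (ratio 1.60, 1.33 to 1.94). The other shared site, at 77.7 kb downstream (108859228 to 108859428), had 16.01 and 6.26 FPKM, against 3.33 and 1.21 (ratio 2.56, 1.96 to 3.38). Only 2.1 kb from it, a site listed at 4 °C only had 14.05 and 3.63 FPKM, against 2.41 and 2.40 (ratio 3.88, 2.78 to 5.53). The site at 64.8 kb had 6.91 and 0.91 FPKM, against 1.48 and 0.81 (ratio 7.63, 4.06 to 15.8), on 11 reads at 29 °C. One site, at 16.2 kb, lies inside Axin2, with 5.66 and 1.98 FPKM. The ratios over the gene's sites thus ran from 1.60 to 7.63.

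The nuclear factors of the Wnt pathway had 9 sites in the 4 °C list, none of them in the 29 °C list, and 2 sites listed at 29 °C only. Lef1 and the Tcf7 family encode the DNA-binding partners of β-catenin. The 4 Lef1 sites lie between -72.9 and -170 kb from the TSS, all intergenic. The strongest (chromosome 3, 130720911 to 130721111) had 11.54 FPKM in the cold and 2.31 at 29 °C, against 2.59 and 0.81 in WT (ratio 5.01, 3.32 to 7.79). The Lef1 site at -154 kb had 4.79 and 0.34 FPKM, against 0.38 and 0.21. Its ratio of 14.5 was the highest of all members and rests on 4 reads at 29 °C, hence the interval of 5.40 to 55.1.

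Tcf7l2 had 5 intronic sites in the 4 °C list with 4.79 to 8.87 FPKM at 4 °C and ratios of 3.12 to 3.99. The strongest, at 52.6 kb, had 8.87 and 2.23 FPKM, against 1.85 and 1.01 (ratio 3.99, 2.60 to 6.32). All 5 intervals share a common range. A Tcf7l2 site listed at 29 °C only lies at 195 kb (chromosome 19, 56164583 to 56164783). It had 2.05 FPKM in the cold and 3.88 at 29 °C, against 0.93 and 0.81 in WT (ratio 0.527, 0.314 to 0.869). Tcf7, the member with a site in the 29 °C list alone, had 7.85 and 5.19 FPKM at an intronic site at 12.5 kb (chromosome 11, 52083452 to 52083652), against 2.04 and 1.01. Its signal was higher at 4 °C (ratio 1.51, 1.09 to 2.11, but 0.887 when scaled on the WT reads in the 29 °C windows), and its 4 °C value of 3.87 times WT was just short of the limit of 4.

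**Figure D3:**
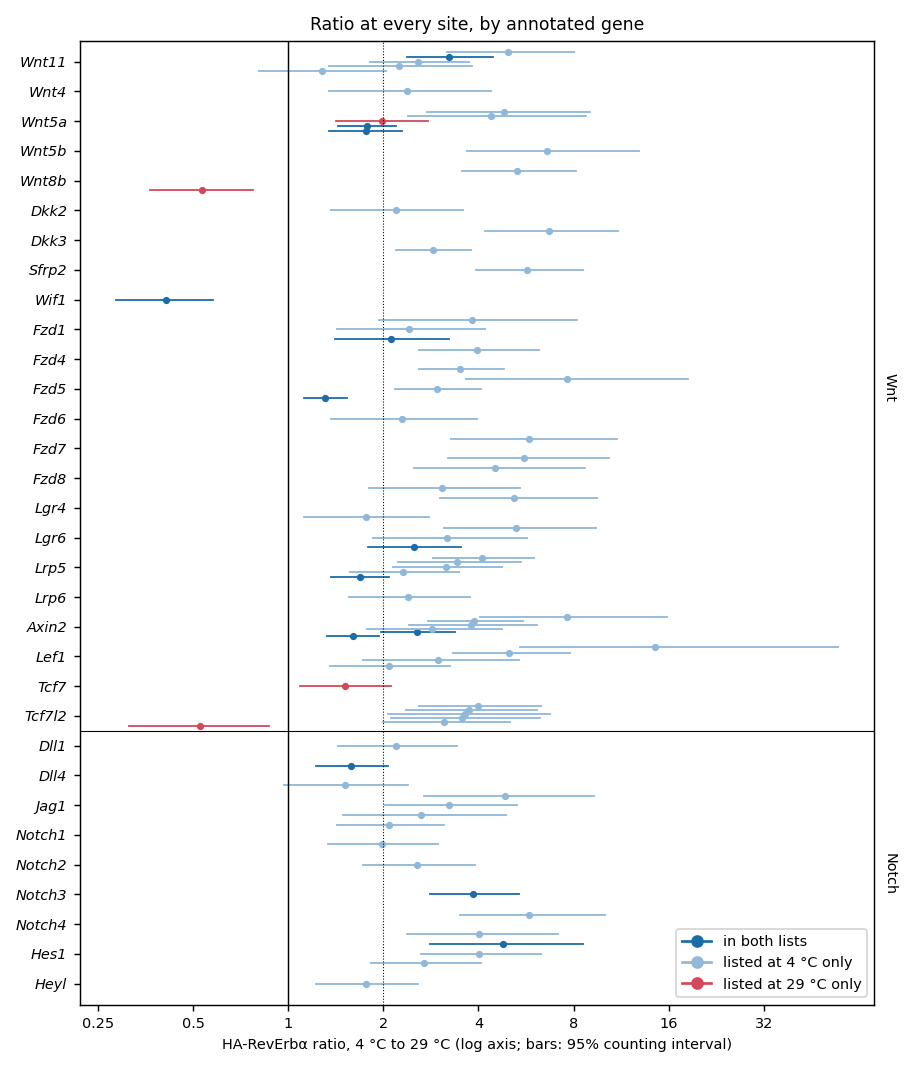
Ratio of HA-RevErba signal, 4 °C to 29 °C (x axis, log), at all 76 distinct member sites, by gene (y axis). Points are sites, bars exact 95% counting intervals, dark blue in both lists, light blue at 4 °C only and red at 29 °C only (read in the 29 °C window). Intervals wholly below 1 are those of Wif1 and of the 29 °C only sites of Wnt8b and Tcf7l2, and the widest interval is that of the Lef1 site with a ratio of 14.5.

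On the Notch side, ligand genes had 6 sites. DLL4 is the Delta-like ligand known from blood vessels. The shared Dll4 site, at -3.20 kb in an intron of the noncoding gene Gm14207 (chromosome 2, 119148221 to 119148421), had 12.24 FPKM in the cold and 7.74 at 29 °C, against 1.67 and 0.41 in WT (ratio 1.58, 1.22 to 2.07). The second Dll4 site, at -7.26 kb, had 4.24 and 2.81 FPKM, against 0.93 and 1.21, and its interval includes 1 (ratio 1.51, 0.968 to 2.40). These were the lowest ratios among the Notch sites when read in the 4 °C windows. Jag1, encoding the ligand Jagged1, had 3 sites listed at 4 °C only. The strongest, at -173 kb, had 6.36 and 1.98 FPKM, against 0.56 and 0.41 (ratio 3.22, 2.02 to 5.31). Dll1 had 1 intronic site at 2.67 kb with 5.97 and 2.72 FPKM, against 1.48 and 0.61 (ratio 2.20, 1.44 to 3.41).

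All 4 Notch receptor genes had sites, with the strongest at Notch3, the receptor known from mural cells of vessels. The Notch3 intron site at 22.9 kb (chromosome 17, 32280812 to 32281012) had 15.85 FPKM in the cold and 4.12 at 29 °C, against 0.38 and 0.21 in WT. The ratio was 3.85 (2.81 to 5.36) in the windows of both lists, which overlap by 189 bp. Background was near its floor, with 2 WT reads at 4 °C and 1 at 29 °C. Notch4, known from endothelium, had 2 sites upstream of the gene. The stronger, at -7.79 kb, had 8.56 and 1.49 FPKM, against 1.12 and 1.21 (ratio 5.77, 3.49 to 10.1). Notch1 had 2 intronic sites, the stronger with 7.07 and 3.38 FPKM, against 0.93 and 1.01 (ratio 2.09, 1.43 to 3.11). Notch2 had 1, with 7.38 and 2.89 FPKM, against 0.56 and 0.81 (ratio 2.56, 1.72 to 3.89). The interval of the stronger Notch4 site lies above that of the stronger Notch1 site, while those of Notch1 and Notch2 overlap.

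Of the 9 Hes and Hey genes only Hes1 and Heyl had sites. HES1 is a repressor that oscillates with Notch signalling and is a main Notch target. Its 3 sites span 7.19 kb upstream of the TSS. The strongest, at -8.20 kb (chromosome 16, 30057146 to 30057346), had 9.26 FPKM in the cold and 2.31 at 29 °C, against 0.93 and 1.01 in WT (ratio 4.02, 2.64 to 6.30). The one nearest the TSS, at -1.01 kb, had 8.01 and 2.97 FPKM, against 0.93 and 1.80 (ratio 2.70, 1.83 to 4.07). The shared Hes1 site depended on the window. In the 4 °C window (30059616 to 30059816) the pools had 6.68 and 1.41 FPKM, against 1.67 and 1.21 (ratio 4.77, 2.81 to 8.56). In the 29 °C window (30059437 to 30059637) they had 5.73 and 4.45 FPKM, against 1.12 and 0.61 (ratio 1.29, 0.894 to 1.87). The 2 windows overlap by 21 bp, and only the first interval lies above 1. Heyl, another Notch target, had a site in its 3′ UTR with 6.83 and 3.88 FPKM, against 0.93 and 1.41 (ratio 1.76, 1.22 to 2.57).

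By median, Notch sites lay closer to the TSS than Wnt sites, but the Wnt classes were unlike each other. The median distance to the TSS was 7.53 kb at the 16 Notch sites and 47.1 kb at the 56 Wnt sites, beside 27.5 kb over all 4 °C sites. Within 10 kb lay 10 Notch sites (62.5%) and 11 Wnt sites (19.6%), beside 26.1%. Beyond 50 kb lay 27 Wnt sites (48.2%) and 2 Notch sites (12.5%), beside 33.8%. The 24 Wnt receptor sites had a median of 17.9 kb, with 41.7% within 10 kb, so they were closer than the whole list. Medians were 58.2 kb for ligands, 33.3 kb for secreted modulators, 70.2 kb for Axin2 and 61.5 kb for the nuclear factors. Several sites of 1 gene count separately here. Only the Wnt5b and Fzd4 sites were annotated as promoter, or 2.78% of members beside 3.82%. Sites inside a gene other than the annotated one numbered 11 at Wnt genes (19.6%) and 2 at Notch genes (12.5%), beside 16.2%. Of the 13 sites in both lists 6 were of this kind, at Axin2, Wnt5a, Fzd1, Fzd5 and Dll4. The share over all sites in both lists was not computed, so this count has no background beside it. Sites often came in groups, since 19 of the 31 member genes with a 4 °C site had at least 2 (61.3%), beside 2475 of 5451 annotated genes (45.4%). In 11 of these 19 genes the ratio intervals of all sites shared a common range. In the other 8 (Axin2, Dkk3, Fzd5, Lef1, Lgr4, Lrp5, Wnt11 and Wnt5a) they did not. The same count was not made over all genes with at least 2 sites. More sites also make a common range harder to reach, so the count describes these genes and is no trait of the members. Annotation by the nearest TSS does not show which gene a site acts on.

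**Figure D4:**
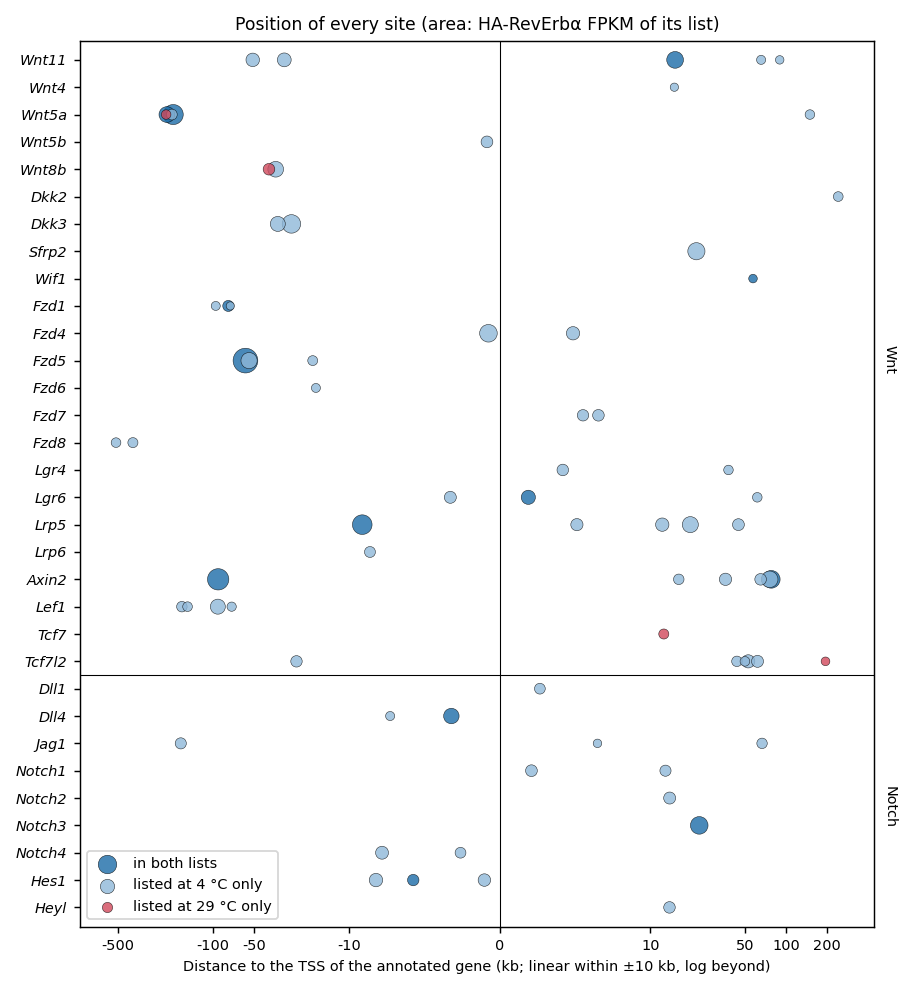
Distance of each of the 76 sites from the TSS of its annotated gene (x axis, kb, linear within 10 kb on either side and log beyond), by gene (y axis). The area of a circle follows the HA-RevErba FPKM of its list, dark blue in both lists, light blue at 4 °C only and red at 29 °C only. Notch sites lie mostly close to the TSS, with a median distance of 7.53 kb, and the large circles of Axin2, Wnt5a and Fzd5 lie more than 50 kb away.

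Sites in both lists were stronger in the cold pool than members listed at 4 °C only, and less different between temperatures, both of which listing favours. The 13 shared sites had a median of 14.4 FPKM in the cold and 7.25 at 29 °C, against 1.67 and 1.21 in WT, with a median ratio of 1.77. The 59 sites listed at 4 °C only had medians of 6.68 and 1.98 FPKM, against 1.12 and 1.01, with a median ratio of 3.50. Being off the 29 °C list did not mean a lack of signal. At 53 of the 59 the HA-RevErba pool exceeded WT at 29 °C as well, and the second Fzd5 site reached both limits seen in the lists there, 3 FPKM over WT and 4 times WT. Over all 72 sites, 6 did not exceed WT at 29 °C (8.33%), beside 13.8% of the whole list. All 6 belonged to Wnt genes, which held 56 of the 72 sites. They were 10.7% of the Wnt sites, a share not above that of the whole list.

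Other components of the pathways were taken from lists of 40 Wnt and 37 Notch genes. In the 4 °C list 12 of the Wnt (30%) and 11 of the Notch components (29.7%) had sites, beside 21.8% of all protein-coding genes. In the 29 °C list 5 of each had sites (12.5% and 13.5%), beside 6.3%. The β-catenin inhibitor gene Ctnnbip1 was the only one with a 29 °C site and no 4 °C site. Of their 26 Wnt sites at 4 °C, 24 had a ratio of at least 2, and of their 31 Notch sites, 24, beside 83.4% of all sites. No ratio in these 4 °C windows was below 1, and the medians were 3.25 and 2.89. Scaled on the WT reads in the 29 °C windows, 7 of the 57 ratios turn below 1, among them those of Myc (0.813), Amer1 (0.726), Dtx4 (0.766) and the stronger Dtx2 site (0.818). This count, too, has no share over all sites beside it.

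The strongest site of a Wnt component was that of the target gene Myc at -43.1 kb, with 23.61 FPKM in the cold and 17.03 at 29 °C, against 1.30 and 0.81 in WT (ratio 1.39, 1.16 to 1.66). Tle3, a TCF/LEF corepressor gene, had 10 sites in the 4 °C list, the strongest with 17.81 and 5.60 FPKM, against 1.48 and 1.80 (ratio 3.18, 2.42 to 4.24). A Tle3 site listed at 29 °C only, at 218 kb, went the other way, with a ratio of 0.27. The cyclin D1 gene Ccnd1, also a Wnt target, had 5 sites, the strongest with 15.30 and 2.15 FPKM, against 1.30 and 1.21 (ratio 7.15, 4.74 to 11.2). The receptor gene Ror2 had 14.75 and 5.52 FPKM, against 2.96 and 2.20, and the coactivator gene Bcl9l 14.44 and 6.75, against 2.96 and 1.80. Amer1, a regulator of β-catenin breakdown, had 9.58 and 7.74 FPKM, against 0.75 and 1.21, and its interval includes 1 (ratio 1.24, 0.938 to 1.64).

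Among Notch components, the Deltex ubiquitin ligase genes Dtx4 and Dtx2 had sites in both lists. Dtx4 had 29.57 FPKM in the cold and 22.63 at 29 °C, against 0.93 and 0.81 in WT (ratio 1.31, 1.12 to 1.53), higher than any of the Notch members. Dtx2 had 14.36 and 10.29 FPKM, against 1.48 and 1.21 (ratio 1.40, 1.11 to 1.77). Psen2, a subunit gene of the γ-secretase that cleaves Notch, had 14.36 and 6.92 FPKM, against 2.04 and 2.0 (ratio 2.08, 1.60 to 2.72). The fringe glycosyltransferase gene Mfng had 11.69 and 3.96 FPKM, against 1.48 and 2.0. The feedback inhibitor gene Nrarp had 11.07 and 3.63 FPKM, against 2.41 and 0.61 (ratio 3.06, 2.16 to 4.39), at a site that was also in both lists.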

How the data were processed

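Alignment and peak lists are the authors' work. The submitters' processing notes name build mm9, HOMER 4.10 and Bowtie2 2.1.0, with no role for each, and peak-calling settings were not stated. Per the file headers, the deposited FPKM are values of 4 pools in each 200 bp peak. The headers call the difference columns HA-RevErba minus input. No input pool is among the 4, and these columns were read as HA-RevErba minus WT. From the values, 0.01 was added to each FPKM, and the deposited peak score equals reads per 10 M reads of the pool. Starts are printed as deposited. All 4 pools' values were whole multiples of 1 read within 0.011 FPKM (100% of values), giving pools of 63.8 and 60.8 M (HA-RevErba, 4 and 29 °C) and 27.1 and 25.1 M reads (WT), 39.5 to 49.8% of the aligned reads in the deposited aligner logs. For HA-RevErba 3 reads are 0.235 and 0.247 FPKM.

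Each ratio compares recovered reads per pool size, and its exact 95% interval is of the Clopper-Pearson kind. It covers counting error only, because the labels mention no molecular identifiers and reads may be copies of 1 molecule. No p-value was made. The recovery of reads and intervals was tested on simulated data. Values of shared sites were read in the 4 °C window unless stated. Gene names, host genes of transcripts and promoters came from RefSeq tables of GRCm38.p6. The background was protein-coding genes with a curated transcript. Members, lists and the fold of 2 were chosen with earlier results of these data known. Named were each gene's highest-scoring site, all 29 °C and promoter sites, the 5 largest and 5 smallest ratios and up to 6 other components per pathway. One of these components is not reported here. Python 3.11.15, scipy 1.17.1 and pandas 2.3.3 were used. Alternatives changed the windows, scaling, pseudocount, fold, overlap, distance and strictness of the lists.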

Additional observations from a re-analysis of the deposited data

Results flagged for a closer look

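At 6 member sites of the 4 °C list the HA-RevErba pool was above WT at 4 °C and below WT at 29 °C. The first part holds for every site of the list, because listing requires it. Sites not above WT at 29 °C were 8.33% of members, beside 13.8% of all sites of the list. Members thus did not show this more often, and with 6 sites, 2 of them at Fzd7, the gap is no trait of the members. Each rests on 1 pool per genotype and temperature, so the difference was not tested. HA-RevErba minus WT at 29 °C was -0.44 and -0.36 FPKM at the Fzd7 sites (5.53 and 6.55 kb from the TSS) and -0.87 at the Lgr4 site at 4.19 kb. It was -0.39 FPKM at the Lgr6 site at -3.27 kb, -0.56 at the Wnt5a site at -201 kb and -0.92 at the Wnt5b promoter. The 29 °C values come from 13 to 17 HA-RevErba and 8 to 11 WT reads per window.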

How the results depend on the processing

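Every ratio rests on 1 pool per temperature, and leaving out libraries was not possible. No paired analysis was possible because the values are pooled and the result comes from no test. Asking for at least 6 FPKM over WT left 27 Wnt and 7 Notch sites at 4 °C (6 and 1 at 29 °C), at 12 Wnt genes, and at 5 Wnt genes and 1 Notch gene at 29 °C. Within 50 kb of the TSS there were 29 Wnt sites at 4 °C, and 5 at 5 genes at 29 °C. Within 10 kb there were 11 Wnt sites at 7 genes and 10 Notch sites at 4 °C, and 2 Wnt sites at 2 genes at 29 °C. With an overlap of at least 100 bp, Hes1 left the shared Notch sites. With a fold of at least 3, 7 Notch sites passed. The median ratio was 2.82 (Wnt) and 2.39 (Notch) with 0.5 added to each FPKM, and 2.69 for Wnt with the highest-scoring site per gene. Scaling on WT reads of the 29 °C windows (factor 1.71) gave 1.88 and 1.56. It turned the ratios of the shared sites at Axin2 (-91.7 kb, 0.940), Dll4 (0.928), Fzd5 (0.767) and Lrp5 (0.988) below 1, and among the other sites those of Wnt11 (89.6 kb, 0.751), Dll4 (-7.26 kb, 0.888) and Tcf7 (0.887). The factor from the 4 °C windows was 1.02 and turned none of the 13. Both sets of windows were chosen on low WT values at their own temperature. Read in the 29 °C window, 11 of the 13 shared ratios stayed inside their interval, and those of Hes1 and Lgr6 did not. At 3 reads or fewer in a WT pool, fold over WT is not resolved.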
